A study of Mus musculus with 2 samples.

Results

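Mir191 and Mir425 are a pair of microRNA (miRNA) genes on mouse chromosome 9, described here in the hearts of mouse embryos. They were taken by annotation, not by level, though with earlier results of these data known. The members are 2 of the 1973 miRNA genes listed in the deposited counts, Mir425 and Gm24083, matched by Ensembl identifier to GENCODE M21. Mir425 was read on its own strand. Mir191 itself was not among the listed genes, and it was read as the counts on the opposite strand of Gm24083, a listed gene that covers the Mir191 hairpin from the other strand.

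Small RNA under a size of 30 (unit not given by the labels) was sequenced as microRNA-seq from total RNA of whole hearts of B6NCrl embryos at embryonic day 16.5, healthy, with males and females pooled. The labels name no treatment or engineered allele. The 2 libraries are biological replicates of 1 group, so no condition is compared. Replicate 2 came from the hearts of 41 embryos, and the pool size of replicate 1 is not given in the sources used here.

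A miRNA gene is transcribed into a long precursor whose hairpin is cut out and trimmed to a mature RNA of either arm, named 5p or 3p. The mature RNA guides the silencing complex to messenger RNAs, mainly through its seed, bases 2 to 8. Mir191 and Mir425 are known to be made from a shared precursor in many mammalian tissues. miR-191 is found in most tissues and is often used as a reference RNA in quantitative PCR. In mouse erythroid cells a fall of miR-191 accompanies loss of the nucleus, and in human cells miR-425 represses NPPA, the gene of the heart hormone atrial natriuretic peptide.

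The mature sequences are shown because the seed sets each miRNA's targets, and the counts of a gene do not tell its arms apart. They were read from RefSeq tables of GRCm38.p6, where both genes were matched, and are written 5′ to 3′ with the seed in capitals.
miR-191-5p: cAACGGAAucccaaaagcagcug
miR-191-3p: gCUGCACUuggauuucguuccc
miR-425-5p: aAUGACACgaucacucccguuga
miR-425-3p: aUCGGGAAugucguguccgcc

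The 5p miRNAs of the neighbouring genes had different seeds, with the same base at 2 of the 7 seed positions. The miR-191-5p, miR-191-3p and miR-425-3p seeds were each found in 0 other mature mouse miRNAs of the RefSeq table. The miR-425-5p seed was found in 1 other, miR-489-3p (chromosome 6, 3721922 to 3721944), which differs from it beyond the seed.
miR-489-3p: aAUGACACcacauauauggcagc
Mir489 had 0 counts in replicate 1 and 1 in replicate 2, against 10263 and 9761 counts at Mir425. Mir489 was thus at or below the limit of a count of 0, while Mir425 was well covered.

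The hairpins show where the arms lie, with the mature arms in capitals.
Mir191 hairpin: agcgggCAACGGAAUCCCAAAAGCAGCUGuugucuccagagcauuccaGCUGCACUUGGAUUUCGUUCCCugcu
Mir425 hairpin: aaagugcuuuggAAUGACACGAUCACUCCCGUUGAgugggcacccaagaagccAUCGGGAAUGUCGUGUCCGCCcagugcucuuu

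Mir191 (ENSMUSG00000105497.1) lies on the plus strand at chr9:108568319-108568392 of mm10, the build of the files, and its hairpin has 74 bases. Mir425 (ENSMUSG00000065579.1) lies on the same strand at chr9:108568777-108568861 and has 85 bases, with 384 bases between the hairpins. Gm24083 (ENSMUSG00000092915.1) lies on the minus strand at chr9:108568295-108568414. Its 120 bases cover the whole Mir191 hairpin and reach 24 bases past it on one side and 22 on the other. A read counted on its opposite strand therefore overlaps the Mir191 hairpin or its flanks in the direction of Mir191. The Gm24083 sequence in GENCODE M21 is shown with the stretches complementary to miR-191-3p and then miR-191-5p in capitals.
Gm24083: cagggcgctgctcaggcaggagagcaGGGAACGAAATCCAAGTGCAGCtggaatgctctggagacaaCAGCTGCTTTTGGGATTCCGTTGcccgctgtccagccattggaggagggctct

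The annotations differ on the host gene. RefSeq places both hairpins inside Dalrd3, whose gene starts 835 bases before Mir191 and runs from 108567484 to 108572773. In GENCODE M21 no Dalrd3 transcript spans either hairpin: that gene starts at 108569886, 1024 bases past the end of Mir425. There the hairpins lie in a long non-coding gene of the plus strand, 4833445I07Rik (108567533 to 108569174). Both hairpins are exonic in its 1-exon transcript. In its 2-exon transcript Mir191 is intronic, and that transcript does not span Mir425. The locus is therefore called by its miRNA genes here, since a location in Dalrd3 holds in RefSeq only.

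**Figure D1:**
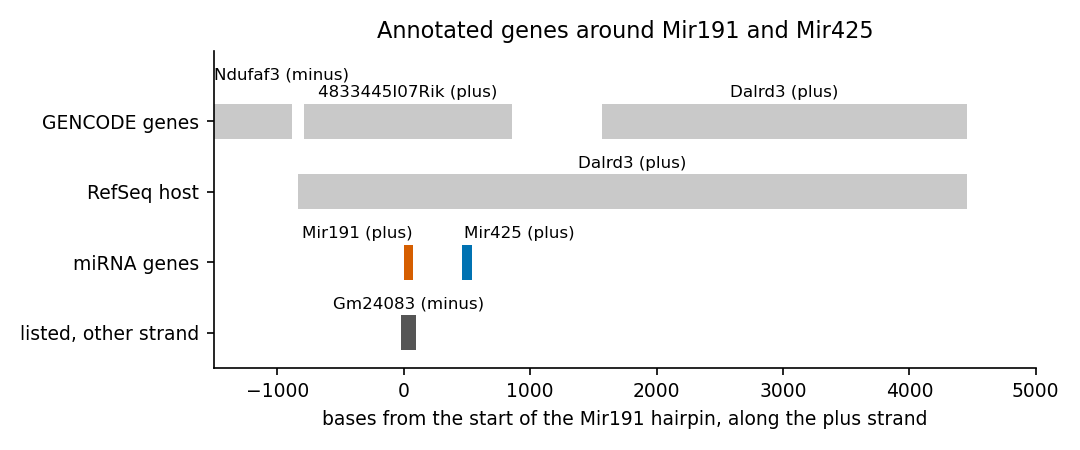
Annotated genes around Mir191 and Mir425, with the distance in bases from the start of the Mir191 hairpin on the x axis and the annotation of each row on the y axis; bars are gene extents, the strand is in brackets and Ndufaf3 runs on past the left edge. Gm24083 covers the Mir191 hairpin on the minus strand, and the hairpins lie inside Dalrd3 in RefSeq but before it in GENCODE M21.

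The 2 libraries held 6473482 and 5841568 own-strand counts at listed miRNA genes, 42.6% and 45.3% of their reads. Levels below are counts per 1000000 of these own-strand counts (CPM). Reads matching several places, 29.5% and 31.9% of reads, were counted in no gene. The mean of the heart muscle markers Mir208a, Mir208b and Mir499 was 6556, 58261 and 2594 CPM, so these markers of the labelled tissue were present. The muscle miRNA genes Mir1a-1, Mir133a-1 and Mir1a-2 (read opposite Mir1b) were low, at means of 2.41, 2.67 and 20.4 CPM. Any reads that match one of these genes and another place are missing here, and how many were lost was not tested. These values are therefore not read as levels of the mature RNAs. Intervals are Wilson 95% intervals and cover counting error only, as PCR copies are not independent molecules.

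Both miRNA genes were well covered in each library, and Mir191 was above Mir425. At Gm24083, 15563 opposite-strand counts were found in replicate 1 and 15853 in replicate 2, or 2404 CPM (interval 2367 to 2442) and 2714 CPM (interval 2672 to 2756). The mean level of Mir191 read this way was 2559 ± 219 CPM (SD, n = 2). Mir425 had 10263 and 9761 counts, or 1585 CPM (interval 1555 to 1616) and 1671 CPM (interval 1638 to 1704). Its mean level was 1628 ± 60.5 CPM (SD, n = 2). For both genes replicate 2 held the higher level, and the levels of Mir191 and Mir425 did not overlap. Together the genes gave 3990 and 4385 CPM. These values set read counts side by side without scaling for length, since the mature arms have 21 to 23 bases; an equal yield of reads from the 4 mature RNAs was not tested.

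**Figure D2:**
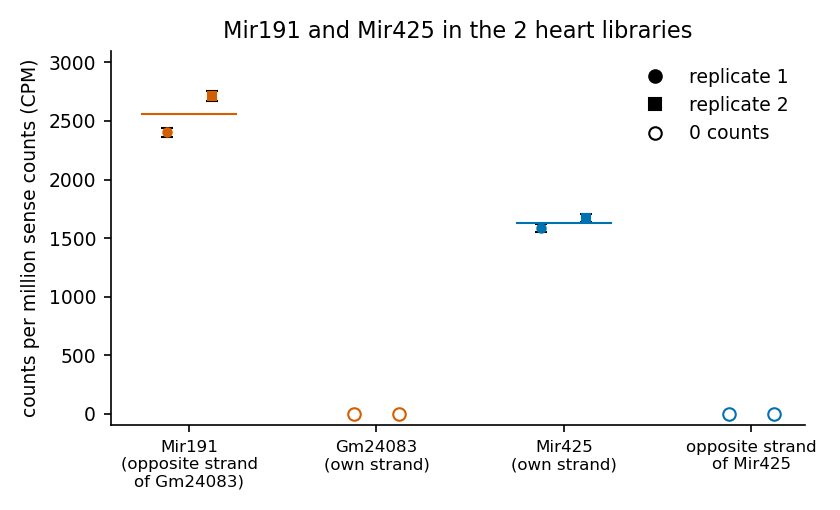
CPM (y axis) at Mir191 and Mir425 and on the other strand of each locus (x axis), with a circle for replicate 1, a square for replicate 2, the mean as a line, Wilson 95% intervals as error bars and open circles for 0 counts. Mir191 sits at 2404 and 2714 CPM and Mir425 at 1585 and 1671 CPM, while both other strands are at 0.

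The reads at this locus came from 1 strand. Gm24083 had 0 counts on its own strand in each library. The limit of a count of 0 was taken as 3 counts, not from a Wilson interval. This allows a share of up to 0.0193% of its reads in replicate 1 and 0.0189% in replicate 2. It also allows a level of up to 0.463 and 0.514 CPM. Mir425 had 0 counts on its opposite strand, which allows up to 0.0292% and 0.0307%. All counted reads of the cluster thus lay on the plus strand. Over all listed genes, opposite-strand counts made up 5.70% and 6.10% of gene counts.

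Gm24083 was one of few genes that carried these opposite-strand reads. Of the 1973 listed genes, 32 were found to overlap an annotated miRNA gene on the other strand, and in each case that partner was not listed. Listed genes not found as miRNA genes in GENCODE M21 could not be assessed for this. These 32 genes held 99.96% of all opposite-strand counts in replicate 1 and 99.97% in replicate 2. Gm24083 was 3rd by opposite-strand counts summed over the libraries, and held 3.98% of them in replicate 1 and 4.18% in replicate 2. It was 4th within each library, behind Gm24321 (opposite Mir409) in replicate 1, at 18572 counts, and behind Mir142b in replicate 2, at 19615 counts. Gm25301, opposite Mir378a, a miRNA within Ppargc1b linked to energy metabolism, held 298224 and 289603 counts (76.2% and 76.3%). Gm25927, opposite Mirlet7e of the let-7 family, held 28520 and 26199. At 6 listed genes the opposite strand reached a mean of 1000 CPM, and 5 of these, Gm24083 included, had 0 own-strand counts in both libraries. Mir126a and Mir30e showed the reverse, with nearly all counts on their own strand although Mir126b and Mir30f lie opposite.

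**Figure D3:**
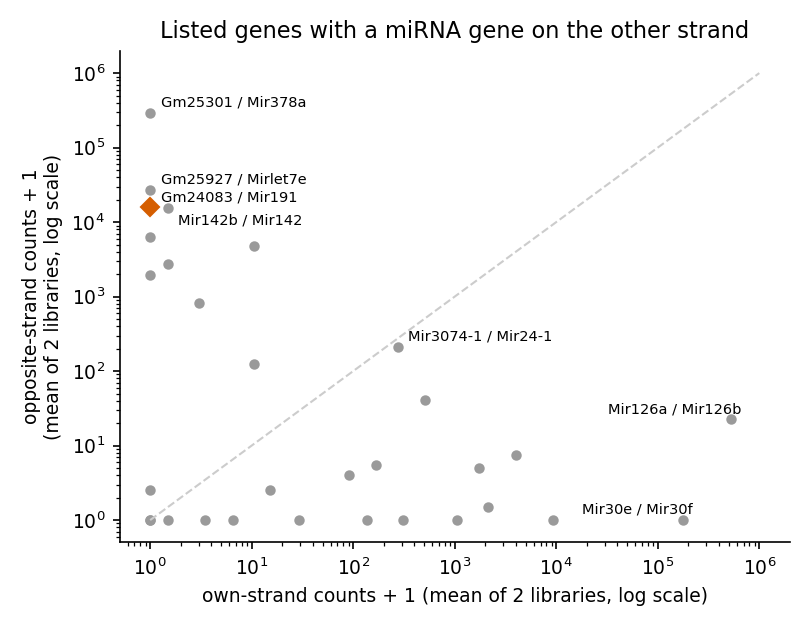
Mean own-strand counts (x axis) and opposite-strand counts (y axis), each plus 1 and on log scales, for the 32 listed genes with an annotated miRNA gene on the other strand (label: listed gene / partner); the dashed line marks equal counts. Gm24083 (diamond) has 0 own-strand counts and stands beside the other genes of this kind at the left edge.

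Among listed genes on their own strand, Mir191 would take rank 46 by mean CPM and Mir425 rank 66 of 1973, of which 725 had a count in either library. The ranks were 50 and 41 for Mir191 in replicates 1 and 2, and 68 and 64 for Mir425. The range of Mir191 over the libraries overlapped that of 11 listed genes, and 39 genes lay wholly above it. Mir425 overlapped 5 genes, with 62 wholly above. Both therefore stood in the upper part of the detected genes, well below leaders such as Mir143, the smooth muscle miRNA, at 96423 CPM. Genes whose reads match several places lose those reads, so these ranks hold for counted reads only.

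**Figure D4:**
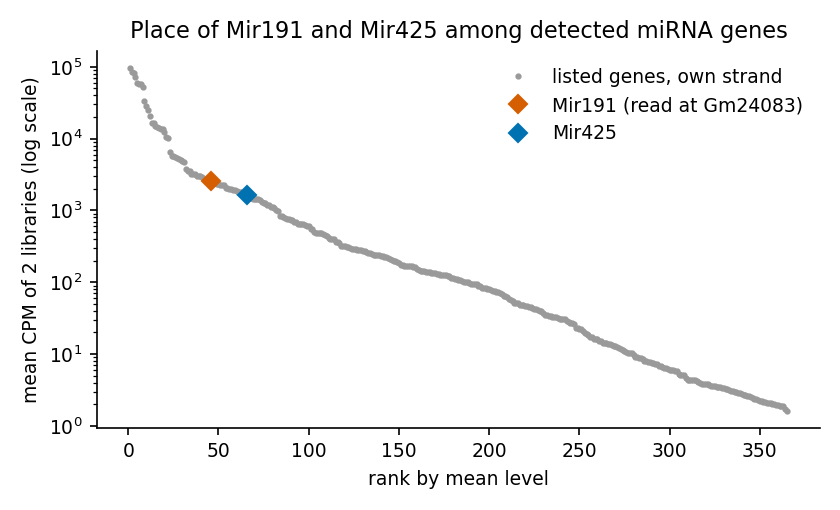
Mean CPM of the 2 libraries on a log scale (y axis) against rank (x axis) for the 365 listed genes with at least 10 own-strand counts in each library, with Mir191 and Mir425 as diamonds at the ranks they take. They stand at ranks 46 and 66, at 2559 and 1628 CPM.

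The 5 genes closest to each were found by the Euclidean distance of log2 CPM over the 2 libraries. For Mir191 they were Mir499 (distance 0.12), Mir369 (0.12), Mir483 (0.17), Mir181c (0.17) and Mirlet7f-2 (0.18). For Mir425 they were Mir18 (0.13), Mir324 (0.13), Mir181d (0.24), Mir541 (0.26) and Mir16-1 (0.26). Mir499, in the slow myosin gene Myh7b, stood at 2584 and 2604 CPM, between the Mir191 values of the libraries. Mir18, of the miR-17-92 cluster, stood at 1706 and 1751 CPM, above both values of Mir425. With 2 libraries this likeness describes level more than pattern.

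The other listed miRNA genes near the cluster had no counts. Within 1 Mb, the listed genes Mir7088, Gm26298, Gm23156 and Mir711 had 0 counts on both strands in each library. Gm47303, 465049 bases before the cluster, was not among the listed genes and was not analysed here. The nearest listed gene, Gm26298, lay 84747 bases past Mir425. With the limits of a count of 0 given above, the counts at listed genes of this stretch of chromosome 9 were those of Mir191 and Mir425.

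Mir191 and Mir425 had nearly the same ratio in both libraries. Mir191 exceeded Mir425 1.52-fold in replicate 1 (exact Clopper-Pearson 95% interval 1.48 to 1.55) and 1.62-fold in replicate 2 (1.58 to 1.67). The mean log2 ratio was 0.65 ± 0.07 (SD, n = 2), and Mir191 gave 60.3% and 61.9% of the reads of the pair. The log2 ratio was higher by 0.099 in replicate 2 (95% interval 0.048 to 0.150), and a two-sided Fisher's exact test on the counts gave p = 0.000151. That test compares the reads of 2 libraries, not conditions, and the ratio moved by 1.07-fold.

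The ratios of genes that share a protein-coding host were taken in 5 other clusters, 18 pairs in all. A similar narrow ratio was found inside some of them: 3 of the 18 pairs stayed under 2-fold in both libraries. In Mcm7, a replication gene, Mir93 exceeded Mir106b 1.51-fold and 1.84-fold. In Clcn5, a chloride channel gene, Mir532 exceeded Mir188 1.46-fold and 1.68-fold, and Mir500 exceeded Mir362 1.95-fold and 1.55-fold. Other pairs of the same hosts were wider, such as Mir93 over Mir25 at 15.8-fold and 17.8-fold. In Smc4 Mir15b exceeded Mir16-2 3.23-fold and 2.68-fold. The ratios were 342-fold and 268-fold for Mir30e over Mir30c-1 in Nfyc, and 443-fold and 575-fold for Mir23b over Mir24-1. Mir24-1 was read as the 267 and 152 opposite-strand counts of Mir3074-1, which also had 284 and 263 own-strand counts. The ratios of both pairs involve genes that share a 20-base sequence with another hairpin, as Mir16-2 also does. Reads matching several places are missing there, so these ratios are uncertain. Between libraries 1 of the 18 log2 ratios changed by less than the 0.099 of Mir191 over Mir425, that of Mir532 over Mir500 at 0.019. Pairs of a cluster share genes, and these values are a description with no test.

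Mir191 and Gm24083 overlap on opposite strands. With that overlap set aside, Mir191, Gm24083 and Mir425 shared a 20-base sequence with 0 other hairpins of GENCODE M21. A read of 20 or more bases within these hairpins therefore has no exact match in an annotated miRNA hairpin outside this locus.

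Both genes were slightly higher in replicate 2 after scaling by TMM (trimmed mean of M-values). Mir191 was 1.15-fold higher, a log2 ratio of 0.20 (95% interval 0.17 to 0.23), and Mir425 1.07-fold higher, a log2 ratio of 0.10 (0.061 to 0.141). Each of 382 features with at least 10 counts in each library, 365 own-strand and 17 opposite-strand, was compared between the libraries by an exact two-sided binomial test. When a call needed a 2-fold difference besides an adjusted p below 0.05, 0 of the 2 genes were called, against 3.14% of all features (12 of 382). Without the minimum fold both passed, with a Benjamini-Hochberg adjusted p of 6.8e-34 for Mir191 and 2.6e-06 for Mir425. So did 46.6% of all features, and 25.9% passed as higher in replicate 2 and 20.7% as lower, and nothing particular to these genes is read from it. These p-values hold counting error and no spread between pools. The median absolute log2 ratio of all features was 0.21. Of all features, 49.2% had a smaller one than Mir191 and 29.8% a smaller one than Mir425. For the 88 features with a mean of at least 1000 CPM, the median absolute log2 ratio was 0.14. This was below the value of Mir191 and above that of Mir425.

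Some markers of other cell types also differed between the pools by the binomial test, and others did not pass it. Passing is counted without a minimum fold in this paragraph, where 25.9% of all features passed as higher in replicate 2 and 20.7% as lower. The leukocyte markers Mir223, Mir142 (read opposite Mir142b) and Mir155 summed to 2314 CPM in replicate 1 and 4043 CPM in replicate 2, with 2 of 3 past the test as higher. The erythroid markers Mir451a and Mir144 summed to 2037 and 1719 CPM, with 1 of 2 past it as lower. All 5 epithelial markers, Mir200a, Mir200b, Mir200c, Mir141 and Mir429, passed as lower, and summed to 4624 and 3229 CPM. The heart muscle markers summed to 67703 and 67120 CPM. Mir208a passed as higher (1.20-fold), Mir208b passed as lower (0.99-fold), and Mir499 did not pass. The smooth muscle markers Mir143 and Mir145a summed to 97337 and 98086 CPM. Both passed as higher, at 1.02-fold and 1.24-fold. The endothelial Mir126a stood at 85876 and 84222 CPM and did not pass. The skeletal muscle marker Mir206 stood at 115 and 234 CPM. It was 2.08-fold higher in replicate 2 and was the only one of these markers called with the 2-fold minimum (binomial test, adjusted p = 5.06e-60). The liver marker Mir122 stood at 160.6 ± 0.97 CPM and did not pass. The 6 neural markers, the miR-124 and miR-9 genes, summed to 3.24 and 0.171 CPM, with 2 of them at 0 in both libraries, Mir9-2 and Mir124a-3. They share 20-base sequences with other hairpins, so reads matching several of them are missing. Mir9-1 was read opposite Gm25641. The part of these markers in the shift of Mir191 and Mir425 was not tested, and in whole hearts more cells of a type and more RNA per cell cannot be told apart.

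Since miR-191 often serves as a reference RNA, both genes were set beside miRNAs used in this way. A list of 20 such genes was used, with Mir24-1 read opposite Mir3074-1. Of these, 19 were tested, and 0 were called with the 2-fold minimum, against 3.14% of all features. Without it 13, Mir191 and Mir425 among them, passed as higher in replicate 2, 3 passed as lower and 3 did not pass. Over all features 25.9% passed as higher and 20.7% as lower. Passing without a minimum fold also depends on the number of counts. All features were not matched to the list by level, so no enrichment is read from these shares. The list had a median log2 ratio of 0.17 against 0.018 over all features. Only 11 of the 20 shared no 20-base sequence with another hairpin, Mir191 and Mir425 among them. Of these 11, 8 passed as higher, 2 as lower and 1 did not pass, and their log2 ratios ran from -0.20 for Mir423 to 0.38 for Mir93. By level Mir191 was 5th and Mir425 8th of the 11, between Mir30e at 28556 CPM and Mir186 at 283 CPM. By size of the difference, 2 of the 11 had a smaller log2 ratio than Mir425 (Mir186 at 0.00035 and Mir320 at 0.076), and 7 had a smaller one than Mir191. Mir423, at 3187 ± 352 CPM, was 0.87 of its replicate 1 level in replicate 2, the opposite direction to Mir191.

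**Figure D5:**
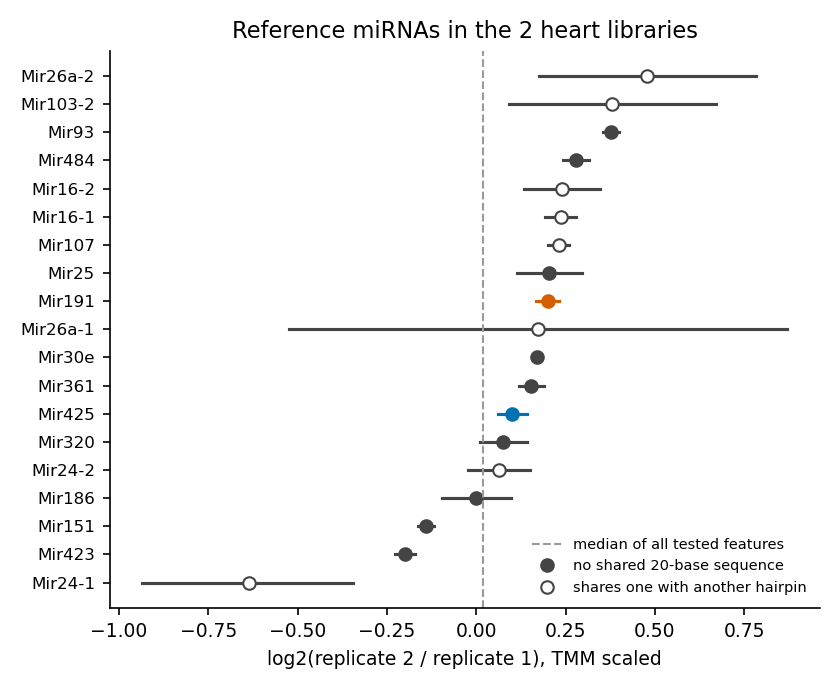
Log2 ratio of replicate 2 over replicate 1 after TMM scaling (x axis) for the 19 tested reference miRNAs (y axis), with exact 95% intervals from counting error as lines, filled points for genes that share no 20-base sequence with another hairpin and open points for those that do; the dashed line is the median of all tested features. Mir425 lies at 0.10 and Mir191 at 0.20, within the spread of the list. Mir191 and Mir24-1 were read opposite Gm24083 and Mir3074-1.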

How the data were processed

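For 2 libraries the authors deposited raw read counts at each miRNA gene, on build mm10 with annotation M4 per the deposited lists of files. Aligner, counting tool and trimming: not given in the sources used here. In each table there are 3 count columns, for either strand and for each strand. Lines that name no gene (54.9% and 51.7% of reads) stayed out of gene totals. The column with the larger gene total, column 3, was taken as the own strand.

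Of the listed identifiers, 1894 were found in GENCODE M21 of the same build. TMM factors came from edgeR 4.0.16 (R 4.3.3) on genes with at least 10 counts per library, and alternatives used DESeq2 1.42.0. With 1 group there is no contrast for edgeR's quasi-likelihood test, so an exact binomial test (scipy 1.17.1), adjusted over all 382 features, compared the libraries. A count of 0.5 was added before log2 ratios. Genes named were Mir425, Mir191, their neighbours, nearest genes, genes of fixed lists, genes these were read from, and top opposite-strand genes. Mir126a and Mir30e on that strand, and Mir1a-1, Mir1a-2 and Mir133a-1, were chosen after their values were seen. The members and lists were chosen with earlier results of these data known. Alternatives were other totals, scalings, count minimums and folds, either-strand counts, and leaving out each replicate. Replicates are separate pools per the labels; chi-square per feature was 169.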

Additional observations from a re-analysis of the deposited data

How the results depend on the processing

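The direction of each difference held under every alternative run. The mean level of Mir425, 1628 CPM, became 1532 per 1000000 counts of both strands, 1802 without the most abundant gene in the total and 716 per 1000000 reads of the library. Mir191 became 2832 and 1127 CPM in the last 2 of these settings, as the denominators differ. The rank of Mir425 became 71 when opposite-strand values were ranked too. With no minimum fold both genes passed, at log2 ratios of 0.10 and 0.20. The count of features called, 12, became 178 with no minimum fold, 31 with a 1.5-fold minimum, 20 of 783 with no filter on low counts and 6 of 268 with at least 100 counts. Total-count scaling and DESeq2 size factors gave log2 ratios of 0.076 and 0.084 for Mir425 and 0.17 and 0.18 for Mir191, with 11 features called in each. Leaving out a replicate gave 1585 to 1671 CPM for Mir425, 2404 to 2714 CPM for Mir191 and a log2 ratio between them of 0.60 to 0.70. No paired analysis was possible because the labels define 1 group. With 2 libraries and 1 group, the spread between pools is known only as a difference of 2 values.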
